A study of Mus musculus with 16 samples.

Results

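The mRNAs of 5 genes, all reported substrates of IRE1-dependent decay, were followed here in mouse islet cells transduced with a virus for Cre recombinase or for LacZ. The genes were Bloc1s1, Hgsnat, Scara3, Col6a1 and Pdgfrb, which are 5 of the 25105 genes measured. They were picked by symbol, with earlier results of these same libraries known, so their differences are given as a description with no test. The starting material was dispersed pancreatic islet cells, primary and of mixed cell type, from Grp78 flox/flox mice. In all groups these cells were kept in 15 mM glucose for 72 h. The 4 groups were Ad-LacZ with DMSO (the control), Ad-Cre with DMSO, Ad-LacZ with the pan JNK inhibitor JNK-IN-8, and Ad-Cre with that inhibitor, and the inhibitor was present from the start. Each group held 4 libraries, one from each of 4 islet preparations named F1, M1, M2 and F2, and each preparation carried 2 animal numbers and was split over all 4 groups.

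IRE1 is a sensor of unfolded protein in the ER membrane, and it carries a kinase and an RNase domain on its cytosolic side. The RNase cuts Xbp1 mRNA so that it can be spliced to encode the transcription factor XBP1s. It can also cut other mRNAs at the ER membrane, which are then degraded, a process called regulated IRE1-dependent decay, and loss of such a substrate is often read as a sign of a highly active RNase. Bloc1s1 is the substrate most often used for this purpose. In beta cells, which make large amounts of proinsulin in the ER, this decay has been described for insulin mRNA as well.

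The 5 genes have different roles. Pdgfrb (ENSMUSG00000024620) lies at chr18:61045150-61085061 on the plus strand of GRCm38, and the positions of the others follow with their sequences. Bloc1s1 encodes a small subunit shared by the BLOC-1 and BORC complexes, which act in the making and positioning of endosomes and lysosomes. Hgsnat encodes a lysosomal membrane enzyme that acetylates heparan sulfate during its breakdown. Scara3 encodes a class A scavenger receptor family member, Col6a1 a chain of the matrix protein collagen VI, and Pdgfrb a receptor tyrosine kinase for PDGF. Pdgfrb is a common marker of pericytes and fibroblasts, and collagen VI is made largely by fibroblasts, so both can also follow the number of such cells in an islet culture. In a bulk sample, fewer cells of a type and less RNA per cell cannot be told apart.

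In the GRCm38 annotation (GENCODE vM21), Bloc1s1 (ENSMUSG00000090247) lies at chr10:128917882-128924035 on the minus strand, and Col6a1 (ENSMUSG00000001119) on the same chromosome at chr10:76708792-76726168, also minus. Hgsnat (ENSMUSG00000037260) lies at chr8:25944453-25976753 and Scara3 (ENSMUSG00000034463) at chr14:65919394-65953935, both on the minus strand. Exons of Bloc1s1 share 720 of their 1288 annotated bases with Rdh5, a retinol dehydrogenase gene on the same strand. Reads in those bases cannot be assigned to one of the genes with certainty. Rdh5 itself was listed at 0.0504 to 0.461 RPKM in the 16 libraries. The exons of the other 4 genes overlapped no other annotated gene.

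IRE1 prefers a CNGCAGN loop closed by a stem, as in Xbp1, and many reported substrates hold the core CTGCAG. The coding sequences were searched for both motifs on the coding strand, on the transcript with the longest complete coding sequence. The stretches below show the Xbp1 loops as a reference and the best-paired CTGCAG of each gene where one is shown, with the 7 bases of the loop in capitals.
Xbp1, first loop, chr11:5524265-5524294: gtctgctgagtCCGCAGCactcagactatg
Xbp1, last loop, chr11:5524291-5524320: tatgtgcacctCTGCAGCaggtgcaggccc
Bloc1s1, chr10:128919999-128920028: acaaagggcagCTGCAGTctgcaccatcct
Hgsnat, chr8:25955739-25955768: tccctggtgtcCTGCAGCggttgggagtga
Scara3, chr14:65931407-65931436: agaccctgaccCTGCAGAagatagtcactg
Col6a1, chr10:76711396-76711425: ccggagaagcgCTGCAGTacacccgggacc

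The Xbp1 loops lie on the plus strand in exon 4 of 5, and stems of 6 and 7 base pairs close them, G-U pairs allowed. The Bloc1s1 stretch lies on the minus strand in exon 4 of 4 and ends just past the last coding base before the stop codon. Its stem has 4 base pairs. The Hgsnat stretch, in exon 11 of 18, has a stem of 3 base pairs. The Scara3 stretch in exon 5 of 6 and the Col6a1 stretch in exon 32 of 35 have no pair next to the loop, and these 3 genes are also on the minus strand. All 5 genes held CTGCAG in the coding sequence, with 3 copies in Bloc1s1 and Pdgfrb and 2 in each of the others. Of 20754 genes searched, 67.3% held it too. The share depended on coding length: among genes within 20% of the length of Bloc1s1 it was 34.4%, and for Pdgfrb it was 93.5%. A CNGCAGN loop with a stem of at least 4 base pairs was present in 1 of the 5 genes, Bloc1s1, and in 7.63% of all genes. With a stem of at least 5 base pairs, as in Xbp1, it was present in 0 of the 5 and in 3.13% of all genes. A match is a description of the letters and not a cleavage site.

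The libraries held 7723488 to 25465865 reads, as recovered from the steps of the RPKM values. The shallowest was the F2 library of Ad-Cre with inhibitor, and the next had 14265849. The name of that F2 library also differs from all the others in its first and last parts. What that difference marks is not stated. Beta cell markers summed to between 33308 and 84807 RPKM and acinar markers to between 1.8 and 10.6 RPKM, so the libraries matched their label as islet cells. The targeted gene went against the knockdown label. Hspa5, which encodes GRP78, ranged from 395 to 483 RPKM under the Ad-LacZ label and from 1107 to 1598 RPKM under the Ad-Cre label, and with inhibitor from 348 to 461 and from 1202 to 1660 RPKM. These gene-level values do not separate the floxed exons, so the label is used below as given. The 26 fibroblast and pericyte markers, called stromal markers here, summed to 323, 519, 1115 and 724 RPKM in preparations F1, M1, M2 and F2 of Ad-LacZ. The sums were 343, 537, 3390 and 1379 in Ad-Cre, 310, 663, 2146 and 1261 in Ad-LacZ with inhibitor, and 245, 307, 1513 and 819 in Ad-Cre with inhibitor. Preparation M2 had the highest sum in all 4 groups and F1 the lowest.

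In control cells the levels per length, in RPKM, were in the order Hgsnat (16.7 ± 1.09, SD, n = 4), Pdgfrb (9.9 ± 4.76), Bloc1s1 (7.44 ± 0.287), Scara3 (0.844 ± 0.382) and Col6a1 (0.568 ± 0.251). Of the neighbours in this order, Bloc1s1 and Scara3 did not overlap over the 4 libraries, and the other pairs did. The place of Bloc1s1 depends on the length used. Its values go with 1288 exon bases, of which 720 are shared with Rdh5, while the coding transcript searched above has 550 bases. Bloc1s1 and Hgsnat varied little between preparations, whereas Pdgfrb ranged from 6.16 to 16.8 RPKM. The least read support was 6 reads, for Scara3 in the F1 library of Ad-Cre with inhibitor, with an exact 95% Poisson interval of 2.2 to 13.1 reads. For Bloc1s1 the reads ran from 59 to 310 and for Col6a1 from 15 to 1402. Such intervals cover counting error only.

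**Figure D1:**
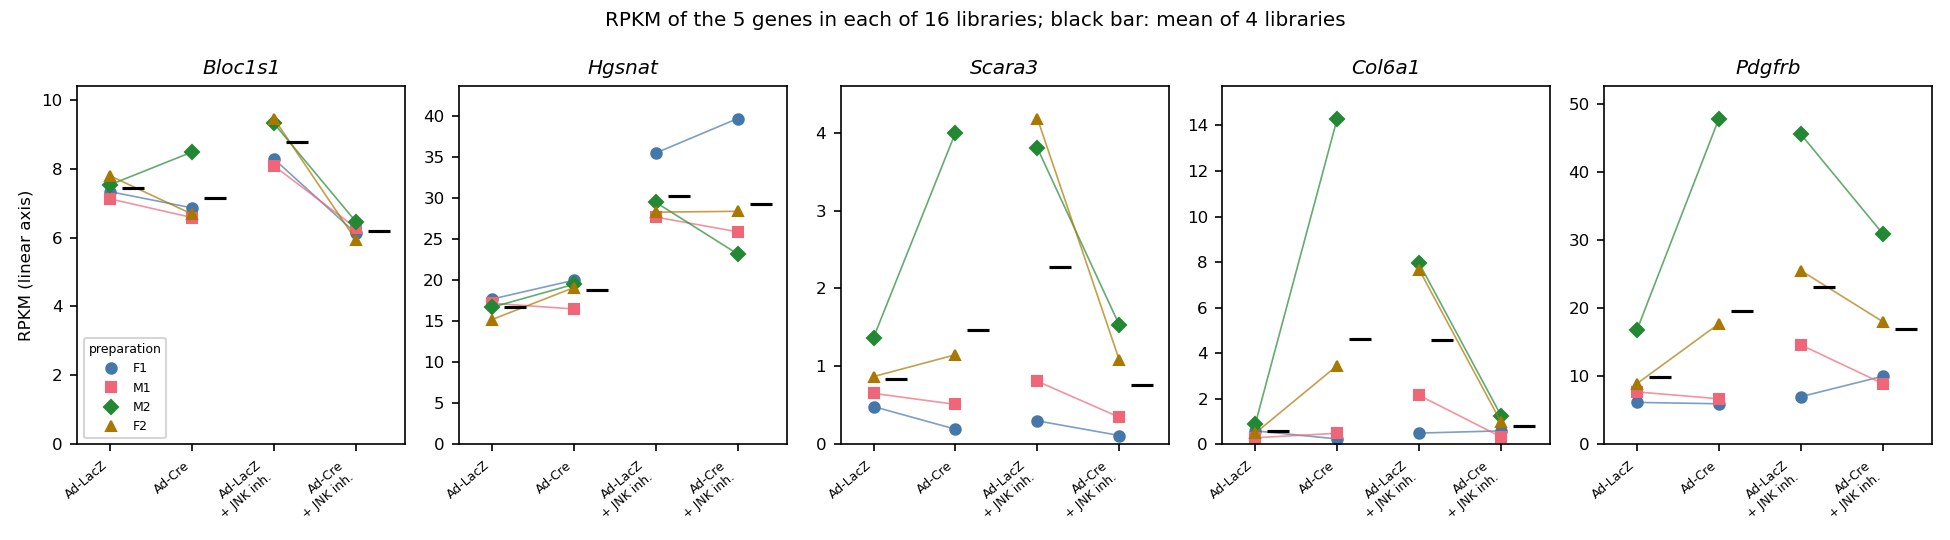
RPKM (linear axes) of the 5 genes in each of the 16 libraries, with symbols and colors for the preparations F1, M1, M2 and F2, lines joining Ad-LacZ to Ad-Cre within a preparation, and a black bar at the mean of 4 libraries. Bloc1s1 was lowest with Ad-Cre and inhibitor together (5.93 to 6.46 RPKM), Hgsnat was higher in both inhibitor groups, and the other 3 genes differed most between preparations.

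The first question was whether these mRNAs were lower in the libraries labelled Ad-Cre than in Ad-LacZ in the absence of inhibitor. None of the 5 genes lay below its control in all 4 preparations. Bloc1s1 was at 7.33, 7.12, 7.53 and 7.79 RPKM in F1, M1, M2 and F2 of Ad-LacZ and at 6.86, 6.58, 8.48 and 6.68 in Ad-Cre. It was slightly lower in 3 preparations and higher in M2, and the groups overlapped. The log2 difference, on the log2(scaled RPKM + 1) scale used for all fitted differences, was -0.06 (SE 0.09), less than its error. Without preparation F2 it was 0.01.

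Hgsnat was at 17.7, 17.2, 16.7 and 15.2 RPKM in Ad-LacZ and at 20, 16.5, 19.5 and 19.1 in Ad-Cre. It was higher in 3 of 4 preparations, with overlapping groups and a log2 difference of 0.16 (SE 0.12, or 0.09 with the preparation as a block). The difference was not larger than 1.5 times its error without the block.

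The 3 genes linked to stromal cells followed the preparation. Scara3 was at 0.485, 0.655, 1.37 and 0.87 RPKM in Ad-LacZ and at 0.195, 0.513, 4 and 1.15 in Ad-Cre. Col6a1 was at 0.593, 0.291, 0.893 and 0.494 RPKM in Ad-LacZ and at 0.24, 0.488, 14.3 and 3.46 in Ad-Cre. Pdgfrb was at 6.16, 7.7, 16.8 and 8.92 RPKM in Ad-LacZ and at 5.96, 6.69, 47.8 and 17.7 in Ad-Cre. For each of them the Ad-Cre libraries of M2 and F2 were above their own control, that of F1 was below it, and the groups overlapped. The 2 libraries that stood high were those whose stromal marker sums were also highest in Ad-Cre. The log2 differences were 0.53 (SE 0.52, or 0.23 with the block) for Pdgfrb, 0.19 (SE 0.38) for Scara3 and 1.07 (SE 0.70) for Col6a1. The last 2 were fitted without the filter on low values, which they did not pass. Without preparation M2 the 3 differences were 0.24, -0.09 and 0.45. Of the 5 genes, 3 passed the filter, and 0 of these had groups that did not overlap, where 14.3% of the 11590 genes tested lay wholly below and 10.7% wholly above their controls.

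With the JNK inhibitor in both arms, the comparison of Ad-Cre with Ad-LacZ gave a different picture for Bloc1s1. It was at 8.28, 8.08, 9.31 and 9.45 RPKM in Ad-LacZ with inhibitor and at 6.12, 6.28, 6.46 and 5.93 in Ad-Cre with inhibitor. Each Ad-Cre library was below each Ad-LacZ library. The ratios within preparations were 0.739, 0.777, 0.694 and 0.628, with a geometric mean of 0.707, and the log2 difference was -0.32 (SE 0.11). Bloc1s1 was 1 of 5 genes whose groups did not overlap downward, beside 14.5% of the 11598 genes tested, and all 5 passed the filter here. The lowest of these libraries, F2, was also the shallowest and the one named differently, with 59 reads on the gene (95% Poisson interval 44.9 to 76.1). The log2 difference without that preparation was -0.28. Whether the difference between Ad-Cre and Ad-LacZ depended on the inhibitor was not tested for this gene. The geometric mean of 0.707 is on RPKM as deposited, on which the median log2 difference of all genes was -0.14, against -0.03 after scaling. On deposited values the log2 difference of Bloc1s1 was -0.44, below that median as well.

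Scara3 and Col6a1 were lower with Ad-Cre under inhibitor as well. Scara3 was at 0.302, 0.809, 3.8 and 4.18 RPKM in Ad-LacZ with inhibitor and at 0.114, 0.348, 1.53 and 1.08 in Ad-Cre with inhibitor. It was lower in 4 of 4 preparations, with ratios of 0.379, 0.43, 0.403 and 0.258, but the groups overlapped because the preparations differed more than the treatments. The log2 difference was -0.64 (SE 0.43, or 0.17 with the preparation as a block). The added 1 shrinks differences at such low values, and with 0.1 in its place the difference was -1.14. Col6a1 was at 0.496, 2.15, 7.95 and 7.67 RPKM and at 0.594, 0.33, 1.26 and 0.975 in the same order. It was lower in 3 of 4 preparations, with ratios of 0.153 in M1, 0.158 in M2 and 0.127 in F2, and about level in F1, where the ratio was 1.2 on 46 and 38 reads. Its log2 difference was -1.22 (SE 0.48, or 0.33 with the block), and -1.77 with 0.1 added in place of 1.

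Pdgfrb and Hgsnat showed no shared direction in this comparison. Pdgfrb was at 7, 14.6, 45.5 and 25.5 RPKM in Ad-LacZ with inhibitor and at 10, 8.91, 30.9 and 18 in Ad-Cre with inhibitor, which gave a log2 difference of -0.18 (SE 0.48). Hgsnat was at 35.5, 27.7, 29.5 and 28.3 RPKM and at 39.7, 25.9, 23.2 and 28.4, with a log2 difference of 0.06 (SE 0.22). Both sets of groups overlapped, and each gene was higher in at least 1 preparation and lower in at least 1.

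**Figure D2:**
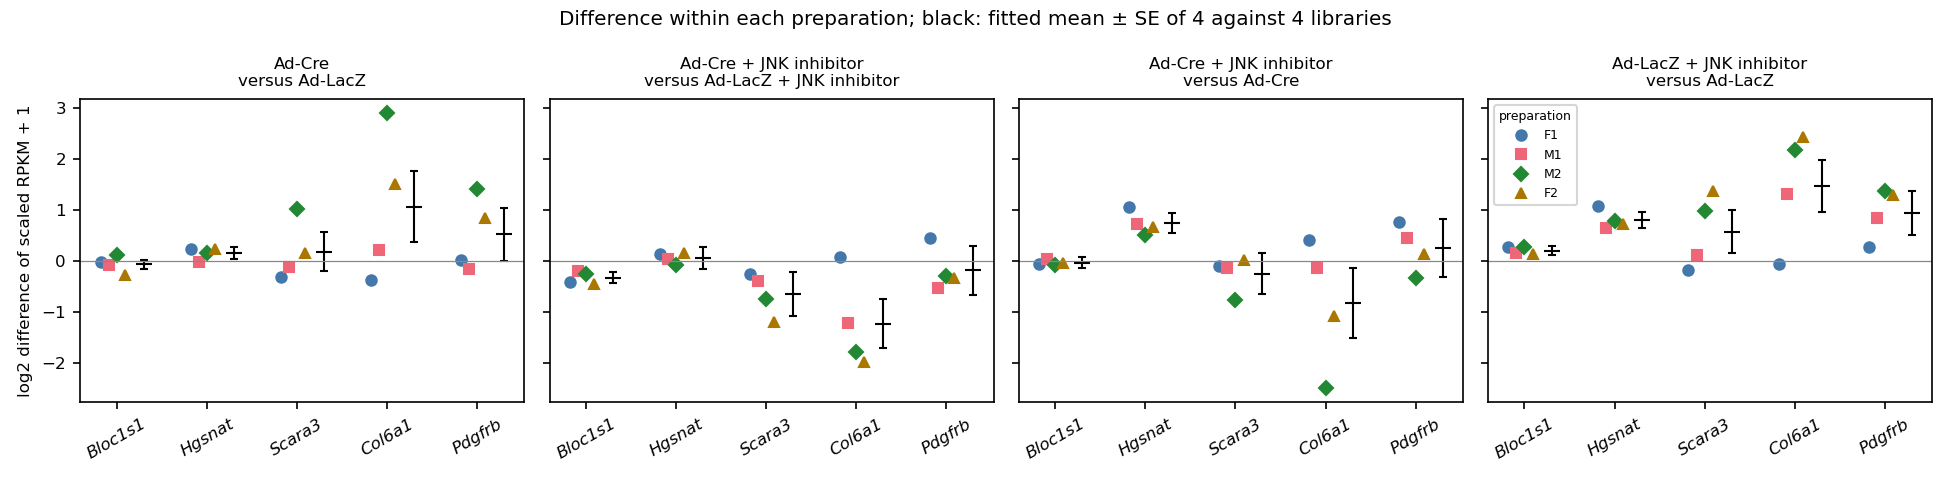
Log2 difference of scaled RPKM + 1 within each preparation (colored symbols) for the 5 genes in the 4 comparisons, with the fitted mean and SE of 4 against 4 libraries in black and a gray line at 0. Under inhibitor Bloc1s1 and Scara3 lay below 0 in all 4 preparations, and Hgsnat lay above 0 in all 4 preparations in both comparisons of inhibitor with DMSO.

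The inhibitor was then compared with DMSO within each virus. These comparisons share their libraries with those above and are not independent of them. Hgsnat was higher with inhibitor in all 4 preparations of both viruses. In Ad-LacZ cells it was higher with inhibitor by ratios of 2.01, 1.61, 1.76 and 1.86, with a log2 difference of 0.81 (SE 0.16), and in Ad-Cre cells by ratios of 1.99, 1.57, 1.19 and 1.49, with a log2 difference of 0.75 (SE 0.20). In each case all 4 libraries with inhibitor were above all 4 without. Among all genes tested, 1.94% lay wholly above and 2.57% wholly below in Ad-LacZ cells, and 3.55% and 2.27% in Ad-Cre cells.

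Bloc1s1 was higher with inhibitor in Ad-LacZ cells, with ratios of 1.13, 1.14, 1.24 and 1.21, a log2 difference of 0.21 (SE 0.08) and groups that did not overlap. Together with Hgsnat, 2 of the 3 genes that passed the filter there lay wholly above. In Ad-Cre cells Bloc1s1 was level, with a log2 difference of -0.03 (SE 0.11). On RPKM as deposited the inhibitor libraries lay wholly below the DMSO libraries in Ad-Cre cells, with a geometric mean ratio of 0.871, but after scaling the groups overlapped. The median of all genes was shifted by -0.14 on the log2 scale in the deposited values of that comparison as well.

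Markers of other cell types also differed with inhibitor. In Ad-LacZ cells limma called 3 of 9 macrophage markers higher (1 with the block and 1 by voom), with 8 at an unadjusted p under 0.05, 6 wholly above and a median log2 difference of 0.75. The summed duct markers went from 146 to 285 RPKM in Ad-LacZ to 388 to 920 with inhibitor, without overlap, and limma called 0 of 3 duct markers tested, 1 with the block. In Ad-Cre cells limma called 0 of 9 macrophage markers (1 at an unadjusted p under 0.05, 1 with the block and 0 by voom), and the summed duct markers overlapped, at 111 to 336 and 224 to 314 RPKM. There all 6 alpha cell markers lay above 0, with a median log2 difference of 0.51, and all 4 delta cell markers, with 0.71. Limma called 0 of both lists, with 1 and 2 at an unadjusted p under 0.05, and with the block 1 of each rose. In Ad-LacZ cells these medians were 0.08 and 0.02, with 0 called. The part of these cells in the levels of Hgsnat and Bloc1s1 was not tested.

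The stromal-linked genes were mostly higher with inhibitor in Ad-LacZ cells. Pdgfrb was higher in 4 of 4 preparations, with ratios of 1.14, 1.89, 2.7 and 2.86 and a log2 difference of 0.95 (SE 0.43, or 0.19 with the block). Scara3 and Col6a1, which did not pass the filter there, were each higher in 3 of 4 preparations, with log2 differences of 0.58 (SE 0.42) and 1.47 (SE 0.51). In Ad-Cre cells the same genes showed log2 differences of 0.26 (SE 0.56, or 0.17 with the block) for Pdgfrb, -0.24 (SE 0.40, or 0.14 with the block) for Scara3 and -0.82 (SE 0.69) for Col6a1. Without the block none of these differences was larger than 1.5 times its error. Single preparations moved these values. Without M2 they were 0.46, -0.07 and -0.26, and without F1 they were 0.08, -0.31 and -1.25. In both comparisons the groups overlapped for all 3 genes, and of the 4 that passed the filter in Ad-Cre cells only Hgsnat did not overlap after scaling.

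To set a lower level of an mRNA beside a change in stromal cell content, each gene was divided by the summed stromal markers of its own library. The sum was unweighted. The pericyte and smooth muscle markers Acta2 and Tagln weighed most in it, with means of 368 and 168 RPKM over the 16 libraries. Pdgfrb tracked the sum. In Ad-LacZ there were 1.91, 1.48, 1.51 and 1.23 RPKM of Pdgfrb per 100 RPKM of stromal markers in F1, M1, M2 and F2, and in Ad-Cre 1.74, 1.25, 1.41 and 1.28. The Pdgfrb level itself spanned 5.96 to 47.8 RPKM in these 8 libraries. The within-preparation change of the quotient was 0.914, 0.84, 0.934 and 1.04. With inhibitor the quotient was higher, at 2.26, 2.2, 2.12 and 2.02 in Ad-LacZ, above all 4 DMSO libraries. It was 4.09, 2.9, 2.04 and 2.19 in Ad-Cre with inhibitor, again above all 4 DMSO libraries. Among all genes tested, 0.266% had quotients wholly above and 0.549% wholly below in Ad-LacZ cells, and 0.669% and 0.0695% in Ad-Cre cells. The result in Ad-LacZ cells depended on which markers were summed, since the mean log2 change of the quotient was 0.51 with all stromal markers, 0.79 with pericyte markers alone and -0.18 with fibroblast markers alone.

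Scara3 was lower per stromal marker in Ad-Cre than in Ad-LacZ. There were 0.15, 0.126, 0.123 and 0.12 RPKM of Scara3 per 100 RPKM of stromal markers in Ad-LacZ and 0.0569, 0.0955, 0.118 and 0.0833 in Ad-Cre. All 4 Ad-Cre quotients were below all 4 in Ad-LacZ, although the M2 quotients of 0.123 and 0.118 were close. The nearest values across the groups were 0.118 in M2 of Ad-Cre and 0.12 in F2 of Ad-LacZ. That F2 value rests on 68 Scara3 reads (Poisson interval 52.8 to 86.2), so the gap between the groups lies within counting error. Of the genes tested, 0.992% lay wholly below and 0.112% wholly above, but Scara3 did not pass the filter there and is not among them. The changes within preparations were 0.379, 0.758, 0.964 and 0.694. Under inhibitor they were 0.48, 0.927, 0.572 and 0.398, lower in 4 of 4 preparations with overlapping groups. The lowest quotient in each pair of groups came from F1, the preparation with the fewest Scara3 reads.

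Col6a1 did not keep pace with the stromal sum in either direction. Its quotient changed by 0.382, 1.62, 5.25 and 3.68 with Ad-Cre in DMSO, and by 1.52, 0.33, 0.225 and 0.196 with Ad-Cre under inhibitor. Thus in M1, M2 and F2 it was higher per stromal marker in the first comparison and lower in the second, and in F1 the order was the opposite. With inhibitor in Ad-LacZ cells the quotient changed by 0.872, 5.81, 4.62 and 8.93. Groups overlapped in each of these 3 comparisons.

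Bloc1s1 and Hgsnat varied far less across libraries than the stromal sum. While the sum spanned 245 to 3390 RPKM, Bloc1s1 spanned 5.93 to 9.45 RPKM and Hgsnat 15.2 to 39.7 RPKM. For these 2 genes the quotient mainly reflects its denominator, and the difference in Bloc1s1 under inhibitor, a ratio of 0.707 on RPKM, became 1.11 per stromal marker, with overlapping groups, where 0.569% of all genes had quotients wholly above and 0.190% wholly below. The stromal sum was lower in Ad-Cre than in Ad-LacZ in all 4 preparations under inhibitor, and its part in the Bloc1s1 difference was not tested.

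**Figure D3:**
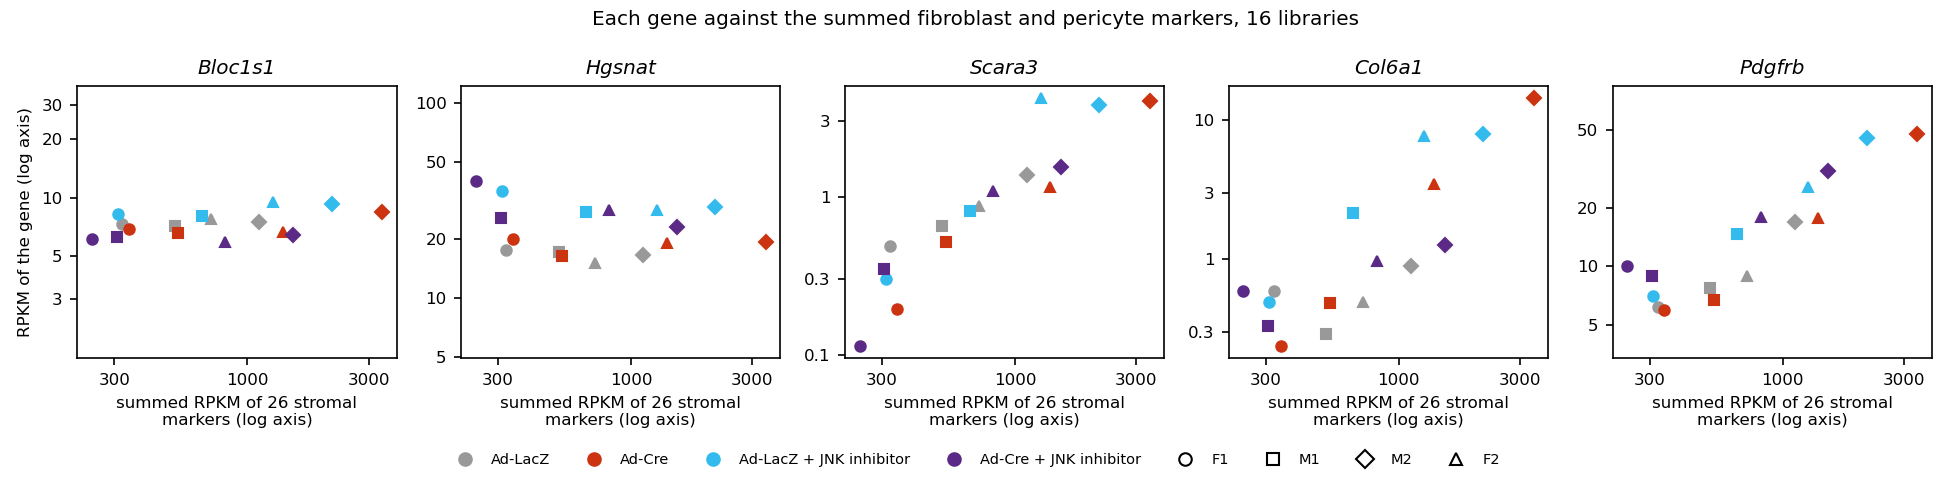
RPKM of each gene against the summed RPKM of 26 stromal markers in the same library, both axes logarithmic, colored by group and with a symbol for each preparation (16 libraries). Scara3, Col6a1 and Pdgfrb climb with the stromal sum across sums of 245 to 3390 RPKM. Bloc1s1 (5.93 to 9.45 RPKM) and Hgsnat (15.2 to 39.7 RPKM) show no such climb, and Hgsnat is higher with inhibitor. The vertical axes of Bloc1s1, Hgsnat and Pdgfrb are drawn wider than their ranges.

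Across the 16 libraries, which share preparations and differ in depth, the median Pearson correlation with the 23 stromal markers above the filter was 0.86 for Scara3, 0.83 for Col6a1 and 0.86 for Pdgfrb. It was -0.12 for Bloc1s1 and -0.30 for Hgsnat. After subtraction of the mean of each preparation these medians were 0.55, 0.79 and 0.63, and 0.34 and 0.05. Between members, Scara3 correlated with Col6a1 at 0.89 and with Pdgfrb at 0.86, while Bloc1s1 correlated with Hgsnat at 0.36 and with Scara3 at 0.09. Within preparations the last value was 0.65. These are descriptions over n = 16 libraries.

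The genes most like each member were also sought among 12273 genes by the same correlation. For Col6a1 the first was Col6a2 (r = 0.99, and 0.98 within preparations), which encodes a partner chain in the collagen VI trimer, followed by Adamts2 (0.98), which encodes an enzyme that trims procollagens, and Cygb (0.97). For Pdgfrb they were Lrp1 (0.99), a large endocytic receptor, Egr2 (0.98) and Snai1 (0.97), both transcription factors. For Scara3 they were Ahr (0.98), the aryl hydrocarbon receptor, Miip (0.97) and Pi15 (0.96). For Hgsnat they were Diras2 (0.92), Crat (0.89), which encodes carnitine acetyltransferase, and Gast (0.89), which encodes gastrin. For Bloc1s1 the first 3 genes were Orc6, Fah and Rnaseh2b, each at 0.88. None of these is a stromal marker on the list used here.

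The other genes of the pathway were examined next, from lists drawn up with earlier results of these libraries known. A gene was called at a Benjamini-Hochberg adjusted p under 0.05 in limma and a fold change over 1.5. In Ad-Cre against Ad-LacZ, 4.08% of all genes tested were called higher and 4.33% lower, and under inhibitor 7.87% and 6.69%. With the preparation as a block the shares were 5.57% and 5.49%, and 8.63% and 7.32% under inhibitor. At an unadjusted p under 0.05 stood 32.6% of all genes in DMSO and 36.1% under inhibitor. Of the 5 genes described here, limma without a block and voom called 0 in either comparison, with 0 at an unadjusted p under 0.05 in DMSO and 2 under inhibitor. With the preparation as a block 2 were called lower under inhibitor, Scara3 and Col6a1, and 0 in DMSO. These counts are no test, since the genes were chosen with results known. The IRE1 gene Ern1 was at 19.5 ± 1.45 RPKM in Ad-Cre and 21.9 ± 2.11 in Ad-LacZ, with a log2 difference of -0.16 (SE 0.11) and a limma adjusted p of 0.341. Under inhibitor the difference was -0.21 (SE 0.13, limma adjusted p = 0.262). Total Xbp1, which does not tell spliced from unspliced, was at 95.1 ± 12 and 99.9 ± 12.5 RPKM, with a limma adjusted p of 0.831, and under inhibitor at 79.2 ± 14 and 89.9 ± 4.99 RPKM, with 0.848. Neither gene passed the test. Hspa5 rose by 1.52 (SE 0.18, limma adjusted p = 0.00212), and by 1.92 (SE 0.22, limma adjusted p = 0.000946) under inhibitor.

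Of 17 genes of the IRE1 branch and of the decay of cleaved RNA, 16 were tested. In DMSO limma called 1 higher and 0 lower, and under inhibitor 2 and 0, with 4 at an unadjusted p under 0.05 in each comparison. In DMSO voom called 1 lower, Xrn1, which encodes an exonuclease that degrades RNA from its 5′ end and was named after its values were seen. Its log2 difference in limma was -0.46 (SE 0.11, limma adjusted p = 0.0217), which missed the fold threshold. The called genes were Hspa5 in both and, under inhibitor, Pelo, which acts in the rescue of stalled ribosomes and was chosen after its values were seen. The reported XBP1s targets gave more calls. All 17 were tested, 7 rose and 0 fell in DMSO, and 8 rose and 0 fell under inhibitor, where the count was 11 with preparation as a block. The median log2 differences were 0.41 and 0.70, against 0.00 and -0.03 for all genes.

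The other reported decay substrates showed no shared direction. Of 13 genes, 10 were tested, and 5 lay above and 5 below 0 in DMSO, with a median of 0.00, while under inhibitor 4 lay above and 6 below, with a median of -0.13. In each comparison 1 gene fell and 0 rose. This was Mttp, which encodes a subunit of the microsomal triglyceride transfer protein and was chosen after its values were seen. It was at 2.91 ± 0.18 RPKM in Ad-Cre and 5.48 ± 0.407 in Ad-LacZ (log2 difference -0.72, SE 0.12, limma adjusted p = 0.00826), and at 2.51 ± 0.235 and 5.59 ± 0.677 under inhibitor (-0.80, SE 0.14, limma adjusted p = 0.00598). Sparc, a matrix glycoprotein gene that stromal cells express strongly, was at 101 ± 101 RPKM in Ad-Cre and 43.4 ± 22.4 in Ad-LacZ, and did not pass the test (limma adjusted p = 0.42). The insulin mRNAs did not pass it either. Ins1 gave a log2 difference of -0.37 (SE 0.43) and Ins2 of -0.17 (SE 0.46) in DMSO, and -0.13 (SE 0.36) and 0.56 (SE 0.34) under inhibitor. With the preparation as a block, Ins2 under inhibitor had a limma adjusted p of 0.0274, but its difference missed the fold threshold.

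The partners of Bloc1s1 went in both directions. Of 12 further BLOC-1 and BORC subunits, all tested, 2 rose and 0 fell in DMSO and 1 rose and 0 fell under inhibitor. Bloc1s2 rose from 8.58 ± 1.31 to 15.7 ± 3.58 RPKM in DMSO (log2 difference 0.79, SE 0.15, limma adjusted p = 0.0113) and from 11.4 ± 3.22 to 18.7 ± 5.03 under inhibitor (0.81, SE 0.19, limma adjusted p = 0.0175). The other riser in DMSO was Borcs6, named after its values were seen. Snapin was lower under inhibitor, at 8.35 ± 1.72 against 12.7 ± 1.63 RPKM, with a limma adjusted p of 0.0426 but a log2 difference of -0.44 that missed the fold threshold. Under inhibitor 3 of the 12 lay wholly below their controls without being called, as Bloc1s1 did. These were Snapin and, named after their values were seen, Bloc1s5 with a log2 difference of -0.29 (SE 0.10) and Bloc1s6 with -0.22 (SE 0.10), and 1 of the 12 lay wholly above. Borcs7 differed by -0.08 (SE 0.13) and 0.01 (SE 0.19).

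The lists around the other 4 genes gave few calls. Of 8 heparan sulfate breakdown enzymes, which act beside Hgsnat, 0 were called in DMSO (8 tested) and 0 under inhibitor (7 tested), with medians of -0.10 and -0.31. At an unadjusted p under 0.05 there were 0 and 3, and limma voom on recovered reads called 2 lower under inhibitor. Ids, which encodes iduronate sulfatase, was at 119 ± 20.9 and 152 ± 16.7 RPKM in DMSO and at 97.9 ± 9.03 and 139 ± 11.1 under inhibitor, with limma adjusted p of 0.206 and 0.164. Among 5 further collagen VI chains, Col6a2 and Col6a3 resembled Col6a1 under inhibitor, at log2 differences of -0.99 (SE 0.34) and -1.10 (SE 0.42). They passed the limma test only with preparation as a block (adjusted p = 0.032 and 0.0029, against 0.0699 and 0.0888). Col6a6 fell without the block, by 0.83 on the log2 scale (SE 0.16, limma adjusted p = 0.00832), and was named after its values were seen. Of the 4 other class A scavenger receptors only Colec12 passed the filter, and it was not called, with log2 differences of 0.76 (SE 0.68) and -0.55 (SE 0.66). Of 5 genes for PDGF ligands and the related receptor Pdgfra, limma tested 2 in DMSO and 3 under inhibitor, and voom tested 4 in each. Of those tested, 0 were called in either comparison, by limma, with the block or by voom, with 0 at an unadjusted p under 0.05 in limma. Pdgfra differed by -0.14 (SE 0.50) under inhibitor.

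The stromal markers themselves lay on the same side of 0 as Scara3, Col6a1 and Pdgfrb. In DMSO all 12 fibroblast markers tested lay above 0, with a median log2 difference of 0.68, and all 9 pericyte markers tested, with 0.54. Under inhibitor all 13 fibroblast markers tested lay below 0, with a median of -0.75, and 7 of 9 pericyte markers, with -0.22. None of these passed the limma test without a block, with 0 at an unadjusted p under 0.05 in DMSO and 1 in each list under inhibitor, and limma voom called 0 in both. With preparation as a block, 3 fibroblast and 1 pericyte markers rose in DMSO, and 8 fibroblast and 1 pericyte markers fell under inhibitor. Col1a1 was at 116 ± 154 RPKM in Ad-Cre and 30.8 ± 21.1 in Ad-LacZ, and under inhibitor at 38.8 ± 33.3 and 130 ± 113 (blocked limma adjusted p = 0.00387). Bgn gave log2 differences of 0.53 and -0.33, and Col5a2 of 0.66 and -0.11. The pericyte markers Acta2, Tagln and Myl9 gave 0.59, 0.59 and 0.50 in DMSO and -0.31, -0.29 and -0.46 under inhibitor. How much of the difference in Scara3, Col6a1 and Pdgfrb follows the content of these cells was not tested beyond the quotients above.

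Markers of the other cell types in the culture moved as well. In DMSO 3 of 10 beta cell markers fell (7 with the block) and 3 of 9 macrophage markers tested rose (7 with the block). Under inhibitor 5 of 10 beta cell markers fell (7 with the block), 1 of 3 duct markers tested fell, and 0 of 9 macrophage markers passed, with 0 at an unadjusted p under 0.05 and 0 by voom. The summed macrophage markers were at 83.7 to 94.8 RPKM in Ad-LacZ, 87.8 to 249 in Ad-Cre, 161 to 350 in Ad-LacZ with inhibitor and 198 to 336 in Ad-Cre with inhibitor. Of the 6 alpha cell markers 0 passed limma or voom in either comparison, with 1 at an unadjusted p under 0.05 in each. With the block 1 alpha cell marker fell in DMSO, Slc7a2 (log2 difference -0.80, blocked limma adjusted p = 0.00152), and 1 rose under inhibitor, Ttr (0.65, blocked limma adjusted p = 0.0116). Of 8 endothelial markers tested 0 passed by either tool, with 0 and 1 at an unadjusted p under 0.05. The delta cell, acinar and, in DMSO, duct markers gave 0 calls by limma from 3, 1 and 3 markers tested in DMSO and, for delta and acinar, from 4 and 1 under inhibitor. At an unadjusted p under 0.05 these were 0, 0 and 1, and 2 and 0. Voom tested 1 delta cell marker in each comparison and 4 duct markers in DMSO and called 0 of these, and it tested 0 acinar markers. With the block limma called 2 delta cell markers higher under inhibitor, Sst (log2 difference 0.85, blocked limma adjusted p = 0.032) and Rbp4 (1.00, 0.0275), and the acinar marker Cela1 (0.65, 0.0201). The markers named here were chosen after their values were seen. The part of these cells in the levels of the 5 genes was not tested.

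**Figure D4:**
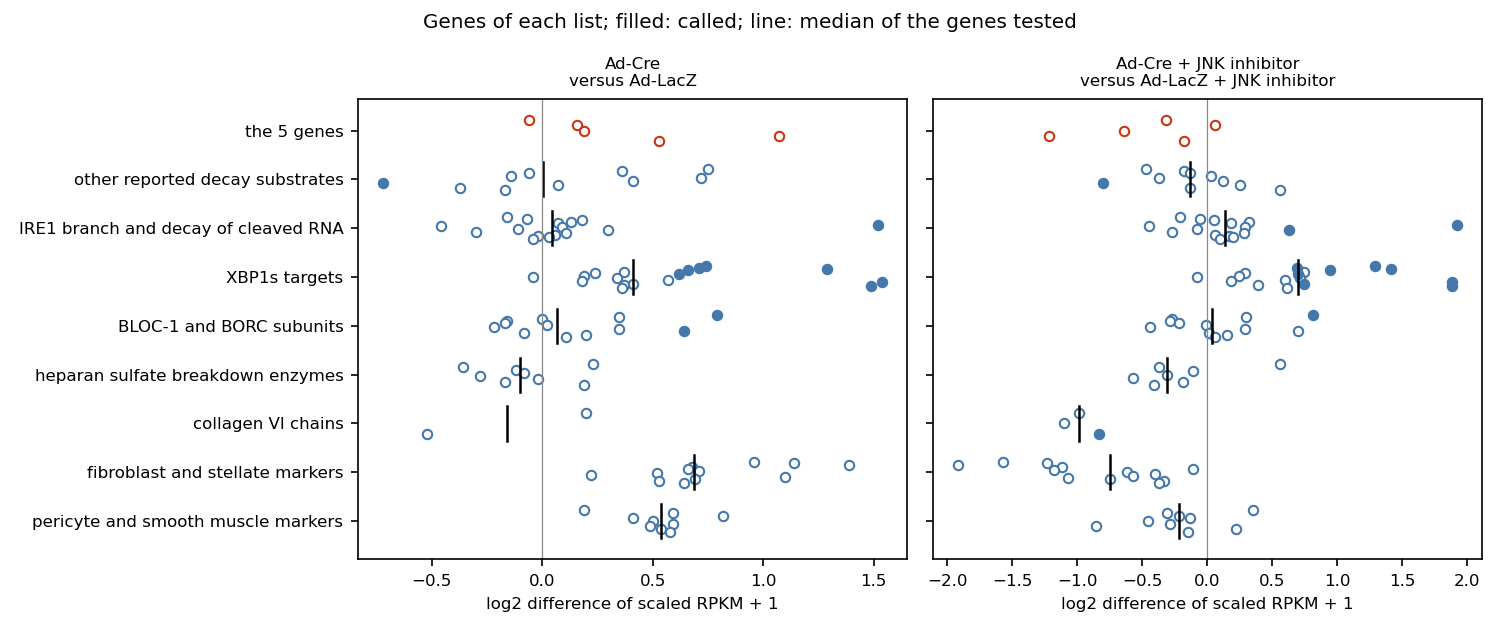
Log2 difference of scaled RPKM + 1 for each tested gene of 8 lists (blue) and for the 5 genes (red, including those below the filter) in Ad-Cre against Ad-LacZ without inhibitor (left) and with it (right). Filled symbols passed the limma test and the fold threshold and a black line marks each list's median, which was 0.41 and 0.70 for the XBP1s targets, 0.00 and -0.13 for the other reported decay substrates, and 0.68 and -0.75 for the fibroblast markers.

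In the comparisons of inhibitor with DMSO the threshold was a fold change over 1.2. Few genes passed without a block, 0.146% higher and 0.0515% lower in Ad-LacZ cells and 0.00869% each way in Ad-Cre cells. With preparation as a block 4.66% rose and 2.10% fell in Ad-Cre cells, and 0.249% and 0.0858% in Ad-LacZ cells. At an unadjusted p under 0.05 stood 8.03% of all genes in Ad-Cre cells and 6.07% in Ad-LacZ cells. Of the 5 genes, limma without a block and voom called 0 in either comparison, with 1 at an unadjusted p under 0.05 in Ad-Cre cells and 2 in Ad-LacZ cells, and the block gave 1 called higher in each, again with no test implied. Among heparan sulfate enzymes, the neighbors of Hgsnat in function, 0 of 8 were called in Ad-LacZ cells and 0 of 7 in Ad-Cre cells (2 rose with the block), with medians of 0.18 and 0.06 and 2 at an unadjusted p under 0.05 in each, against 0.81 and 0.75 for Hgsnat itself. Of the 12 BLOC-1 and BORC subunits 0 were called in either, by limma, by limma with the block or by voom, with 1 and 0 at an unadjusted p under 0.05, and their medians were -0.04 and -0.12. Likewise 0 of 10 other decay substrates, 0 of 16 IRE1 branch genes and 0 of 17 XBP1s targets were called in either comparison by limma or voom, with 1, 0 and 1 at an unadjusted p under 0.05 in Ad-LacZ cells and 0, 0 and 3 in Ad-Cre cells. With the block, 1 decay substrate and 2 XBP1s targets rose in Ad-Cre cells and 1 XBP1s target rose in Ad-LacZ cells.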

How the data were processed

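Poly(A) RNA of 16 islet cell libraries was sequenced as paired reads, and the deposited values were RPKM per gene, made by the authors for build GRCm38. The study's methods name STAR for alignment. The annotation and the RPKM step are not given in the sources used here. Libraries were mapped to groups by their labels, and 3 value columns that match no sample were not used. The members and lists were chosen with earlier results of these data known. The genes named were the 5 members, list genes fixed by name, and the 3 genes most correlated with each member.

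RPKM was divided by a TMM factor computed on RPKM (30% and 5% trims), and genes above 1 RPKM in at least 4 of 8 libraries were fitted as log2(value + 1) with limma 3.58.1 (eBayes with trend) in R 4.3.3. Virus comparisons used a fold over 1.5, inhibitor comparisons 1.2, and a Benjamini-Hochberg adjusted p under 0.05. Without the block the p-values cover the spread between the 4 libraries of each group, taken as unpaired. With the block the preparation means are removed, and the p-values cover how far the differences within preparations vary between the 4 preparations. Whole reads (within 0.05) were recovered from RPKM and exon lengths for 91.2% of genes, which gave the depth and the exact 95% Poisson intervals. Sites and read counts were computed in Python 3.11.15 with pandas 2.3.3 and scipy 1.17.1.

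The labels give the same animal numbers to the 4 treatments of a preparation. Same-preparation libraries deviated together, with correlations of 0.487 to 0.72 and 0.161 to 0.662 in the virus comparisons and 0.648 to 0.821 and 0.129 to 0.826 in the inhibitor comparisons. Alternatives were another pseudocount, other filters and scalings, a joint fit of all 16 libraries, a preparation block, no trend, leaving out each preparation, and marker sums of one stromal cell type. A limma voom fit of the recovered reads was added after seeing the data. The fit was tested on simulated data first.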

Additional observations from a re-analysis of the deposited data

Results flagged for a closer look

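Bloc1s1 in the M2 library of Ad-Cre stood apart from the other 3 libraries of its group, at 8.48 RPKM against 6.58 to 6.86. Its gap to the nearest library was 0.853 of the range of the group, above the 95% critical value of Dixon's test for 4 samples. It was 1 of 20 groups of 4 examined, and chance alone marks about 1 in 20. The same library had the highest stromal marker sum, 3390 RPKM, and its part in the Bloc1s1 value was not tested.

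Bloc1s1 stood on opposite sides of its DMSO libraries with inhibitor only on unscaled values. On RPKM as deposited it was lower in all 4 preparations of Ad-Cre, with a geometric mean ratio of 0.871, and higher in all 4 of Ad-LacZ, with a geometric mean ratio of 1.18. The median log2 difference of all genes was itself -0.14 in that Ad-Cre comparison. On scaled values the Ad-Cre groups overlapped, with a log2 difference of -0.03 (SE 0.11) and 1 preparation, M1, higher by 0.04, and the value in Ad-LacZ was 0.21 (SE 0.08). The difference between these effects was not tested.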

How the results depend on the processing

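The filters, the preparation block and the fit without trend cannot change a log2 difference of the 5 genes in this balanced design. The replicate spread used as the yardstick was also wide for the stromal-linked genes. For Scara3 in Ad-Cre against Ad-LacZ, 0.19 became -0.09 without M2 and still counted as less than the spread. Among all recomputed log2 differences of the 5 genes, those fixed by the design included, 256 moved by less than the replicate spread and 4 by more. The latter were Bloc1s1 on RPKM as deposited, at -0.44 for Ad-Cre against Ad-LacZ under inhibitor and -0.17 for inhibitor against DMSO in Ad-Cre, and 2 values by voom on recovered reads, -1.41 for Scara3 in Ad-Cre against Ad-LacZ under inhibitor and 2.50 for Col6a1 in inhibitor against DMSO in Ad-LacZ. With fibroblast markers alone the log2 quotients became 0.59 (Bloc1s1), 1.02 (Hgsnat) and 0.78 (Pdgfrb) for Ad-Cre against Ad-LacZ under inhibitor, -0.96, -0.35 and -0.18 for inhibitor against DMSO in Ad-LacZ, and -0.29 for Pdgfrb in Ad-Cre against Ad-LacZ in DMSO. With pericyte markers alone the Pdgfrb quotient for inhibitor in Ad-LacZ was 0.79.

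Over all genes, 975 were called in Ad-Cre against Ad-LacZ, and 182 to 754 with a preparation left out (182 without F2, 525 without M1, 551 without F1). Under inhibitor 1689 were called, and 439 to 2516 with a preparation left out (439 without F2, 549 without M1). F2 holds the Ad-Cre library with inhibitor that is shallowest and named differently. Inhibitor against DMSO in Ad-LacZ gave 23, and 6 with no filter, 12 with a filter at 0.1 RPKM, 7 on deposited RPKM, 11 with all 16 libraries, 14 by voom and 0 to 3 with a preparation left out. In Ad-Cre it gave 2, and 57 with all 16 libraries, 0 to 1 with a preparation left out, and 0 with no filter, a filter at 0.1 RPKM, deposited RPKM, quantile normalization, no trend or voom (limma unadjusted p under 0.05 for 1343, 1121, 1603, 909, 928 and 982 genes). The cause was not tested. With preparation as a replicate block the counts were 1281, 1850, 39 in Ad-LacZ and 778 in Ad-Cre.

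Depth limits Scara3 and Col6a1 most, which rest on as few as 6 and 15 reads.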
